A study of Mus musculus with 8 samples.

Results

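Retinoic acid is the active form of vitamin A, and 9 genes for its synthesis, storage, binding and breakdown were described in juvenile mouse ovaries: *Adh1*, *Aldh1a1*, *Aldh1a2*, *Aldh1a3*, *Lrat*, *Crabp1*, *Crabp2*, *Cyp26a1* and *Cyp26b1*. They were chosen by symbol from the 45583 symbols of the gene count table, and all 9 were present. RNA sequencing was performed on ovaries of 8 female C57/Bl6 mice at 3 weeks of age, with 1 library for each of 4 WT and 4 GOAT KO animals. GOAT KO mice carry a global deletion of GOAT, the enzyme encoded by *Mboat4* that attaches the acyl group of ghrelin, and their WT littermates came from the same crosses of heterozygous parents. No treatment is named for either group. Libraries are named here by group and animal number, WT 1118 to 1121 and GOAT KO 1139, 1140, 1141 and 1146.

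The counts on genes summed to between 16147216 and 19481798 per library. In the libraries labelled WT *Mboat4* had counts of 1, 1, 1 and 3, against 5, 7, 7 and 8 under the label GOAT KO. The targeted gene thus went against the labels, and the part of the gene that was deleted is not given in the sources used here. The study also measured this gene by PCR, which was not analysed here, and reported no amplification in juvenile GOAT KO ovaries. WT and GOAT KO below mean the libraries so labelled, and every direction is that of the labels. Summed CPM (counts relative to library size, after TMM normalization) of 6 adipose tissue markers were 613.8 in GOAT KO 1139 and 15.1 to 36.3 in the other 7 libraries, and those of 6 theca and steroidogenic cell markers were 3118 in WT 1120 and 3165 in GOAT KO 1139, above the 1967 to 2825 of the other 6. The defining markers of ovary were present in all libraries, with summed CPM of 3781 to 4996 for granulosa cells and 967 to 1190 for oocytes. GOAT KO 1139 lay apart on the scaling plot, at 1.21 on the first dimension against −0.47 to 0.17 for the other 7. On the second dimension WT 1118 was the farthest from 0 at 0.76, and WT 1120, at −0.43, lay beside GOAT KO 1141 and 1146, so that this plot did not single out WT 1120. The study left 1 library per group out of its own comparison by such a plot without naming them. Results are given for all 8 libraries and for the 6 without WT 1120 and GOAT KO 1139, a pair taken from an earlier analysis of these data.

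Retinol is oxidised to retinaldehyde by dehydrogenases and then, irreversibly, to retinoic acid by the ALDH1A enzymes, while lecithin retinol acyltransferase (LRAT) diverts retinol into stored retinyl esters. Retinoic acid is carried in the cytosol by the CRABP proteins, binds the nuclear receptors RAR and RXR at paired DNA motifs, and is cleared by CYP26 enzymes. In the fetal ovary it is best known as the signal for the entry of germ cells into meiosis.

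The paired motif of the receptors is printed because 2 of the genes described here carry it close to their start, *Cyp26a1*, whose enzyme degrades retinoic acid, and *Rarb*, a retinoic acid receptor. Promoters of RefSeq (GRCm38.p6, 250 bases before to 50 after the start) were matched for 7 of the 9 genes, with no entry for *Aldh1a3* and *Crabp2*. They were searched on both strands for 2 hexamers in the same orientation, each with the letters AGGTCA or AGTTCA or else GGGTCA or GGTTCA, with 5, 2 or 1 bases between them. The spacing of 5 was found in 32 of 32851 promoters (0.0974%), the spacing of 2 in 88 (0.268%) and the spacing of 1 in 73 (0.222%). In the lines below capitals mark the motif; the *Cyp26a1* stretch is on the strand of the gene at chr19:37697736-37697797, with the hexamers read on the opposite strand, and the *Rarb* match is on the strand of the gene at chr14:16575513-16575529.
Cyp26a1: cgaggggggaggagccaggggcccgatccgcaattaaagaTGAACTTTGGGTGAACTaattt
Rarb: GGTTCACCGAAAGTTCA
In *Cyp26a1* the motif lay 32 to 16 bases before the start and in *Rarb* 53 to 37 bases before it. The promoters of *Adh1*, *Aldh1a1*, *Aldh1a2*, *Lrat*, *Crabp1* and *Cyp26b1* held none of these letters at any of the 3 spacings, and neither did those of *Dhrs3*, *Stra6* and *Stra8*, other genes known to respond to retinoic acid that were searched. Both genes with the motif had few reads. *Cyp26a1* had 10 counts in each group and *Rarb* had 40 counts over the WT and 34 over the GOAT KO libraries. A match describes the letters only, and binding was not measured.

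The levels of the 9 genes spanned a wide range. Compared as CPM per kb of exon, so that genes of different length could be set side by side, *Aldh1a1* was the highest at a mean of 166.8 over the 8 libraries (range 132.1 to 218.6), 6.10 times *Crabp2*, the next. *Crabp2* had a mean of 27.4 CPM per kb (21.5 to 36.9), *Aldh1a2* 16.4 (13.8 to 21.0) and *Adh1* 7.83 (4.03 to 11.5). These 4 levels did not overlap with the next lower gene of the order in any library, whereas the ranges of the next 4 genes met. *Aldh1a3* at 2.40 CPM per kb (1.58 to 3.41) was above *Crabp1* at 1.41 (0.624 to 3.06) in 7 of 8 libraries. *Crabp1* was above *Lrat*, at 0.885 (0.286 to 1.52), in 6 of 8, and *Lrat* was above *Cyp26b1*, at 0.473 (0.268 to 0.729), in 7 of 8. *Cyp26a1* was the lowest at 0.070 CPM per kb (0.0277 to 0.129), under every *Cyp26b1* value.

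**Figure D1:**
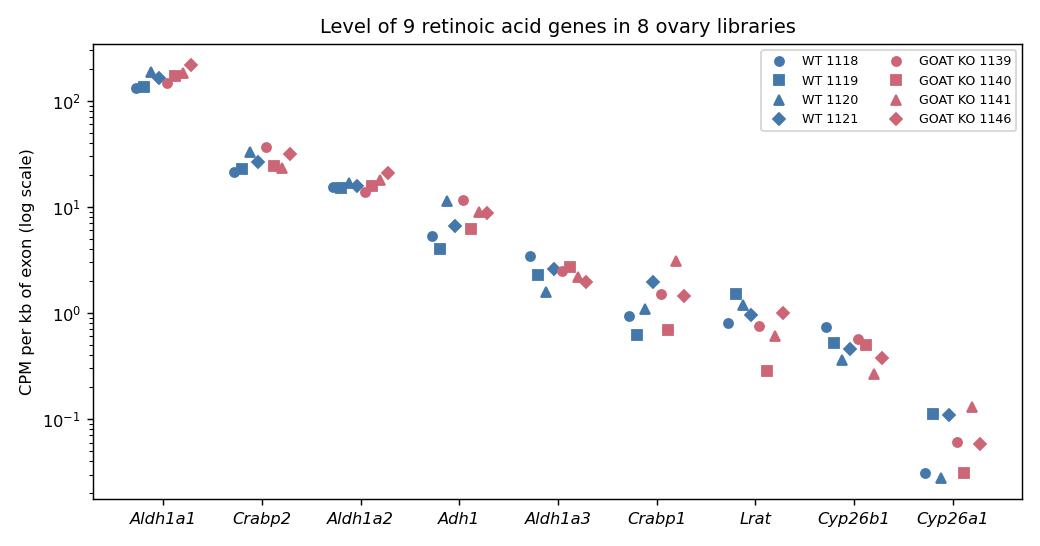
Levels of the 9 genes in CPM per kb of exon on a log axis, 1 point per library with WT and GOAT KO in different colours. *Aldh1a1* stands apart with a mean of 166.8, and *Cyp26a1* is lowest with a mean of 0.070.

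In the comparison of GOAT KO with WT over all 8 libraries, 8 of the 9 genes passed the filter on low counts and 1, *Lrat*, passed the call used by the study (unadjusted p under 0.05 and absolute log2 fold change over 0.5), by edgeR's quasi-likelihood test. *Lrat* was lower in the libraries labelled GOAT KO, a call made for 0.717% of the 16601 genes tested, beside 0.958% called higher and 1.67% in either direction. None of the 8 had groups that did not overlap, which was the case for 2.92% of all tested genes (1.64% higher and 1.27% lower in GOAT KO). At an adjusted p under 0.05, 0 of the 8 were called by edgeR, DESeq2 or limma-voom, and 1 had an unadjusted p under 0.05 by each tool, where 0.0241% and 4.62% of all tested genes passed these thresholds by edgeR. Point estimates were above 0 for 5 genes and below 0 for 3, with a median log2 fold change of 0.14 against −0.00035 for all genes tested. Without WT 1120 and GOAT KO 1139 the gene that passed the call was *Adh1* in place of *Lrat*, where 2.39% of 16641 genes were called (1.32% higher and 1.08% lower). By edgeR 3 of the 8 had an unadjusted p under 0.05 there, as did 9.46% of all genes, and 0 an adjusted p under 0.05, as did 0.120%. In the 6 libraries 1 gene, *Aldh1a1*, had groups that did not overlap, as did 15.8% of all genes (8.24% higher and 7.52% lower). In bulk ovary, fewer cells of a type and less RNA per cell cannot be told apart.

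**Figure D2:**
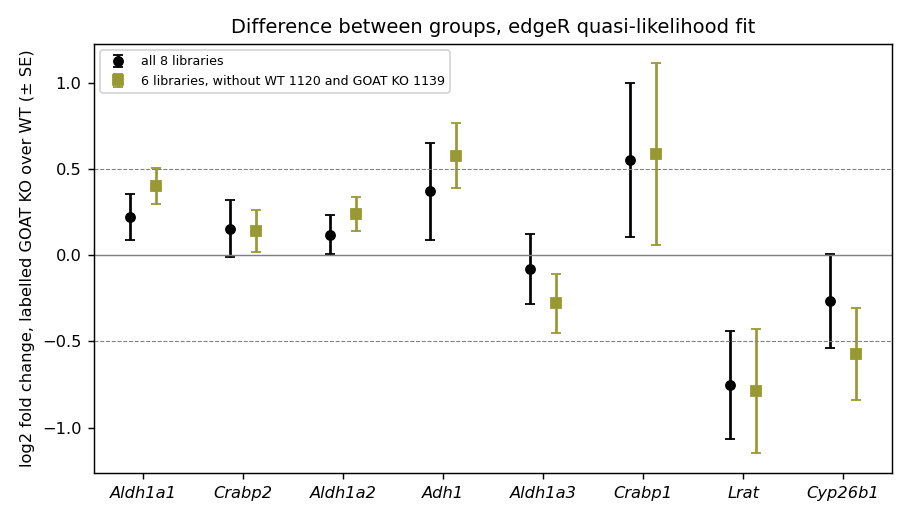
Log2 fold change of GOAT KO over WT for the 8 genes tested, with bars of 1 SE, for all 8 libraries (black) and for the 6 without WT 1120 and GOAT KO 1139 (olive), with dashed lines at ±0.5. *Lrat* lies at −0.75 with all 8 and −0.79 with the 6, and *Adh1* moves from 0.37 to 0.58.

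Among the genes for synthesis, *Aldh1a1* encodes a retinaldehyde dehydrogenase (chromosome 19, 20492715 to 20643465, GRCm38). In WT 1118, 1119, 1120 and 1121 its CPM were 652, 668, 912 and 810, against 728, 843, 894 and 1079 in GOAT KO 1139, 1140, 1141 and 1146. The groups overlapped, with GOAT KO 1146 highest and WT 1118 and 1119 lowest. The WT mean was 761 ± 124 and the GOAT KO mean 886 ± 146 (SD, n = 4), a log2 fold change of 0.22 (SE 0.13). It ranged from 0.11 without GOAT KO 1146 to 0.32 without WT 1120 when each library was left out in turn. The difference did not pass edgeR's test (unadjusted p = 0.126, adjusted p = 0.983). In the 6 libraries the means were 710 ± 87.2 and 939 ± 124 CPM (SD, n = 3) and the groups did not overlap, as for 8.24% of all tested genes in this direction. The log2 fold change there was 0.40 (SE 0.10), with an unadjusted p of 0.00267 and an adjusted p of 0.339 by edgeR, under the fold change of the call. Granulosa cell markers, 7 in all, had summed CPM of 3781 to 4996 in the WT libraries and 4152 to 4842 in the GOAT KO libraries. *Inha* was the largest part, at 3093 CPM in WT 1118, and the sums overlapped in the 6 as well. Of the 7, 1 was called higher over 8 libraries and 3 over the 6, where 0.958% and 1.32% of all tested genes were. Estimates were above 0 for 5 and below 0 for 2 in either set. The study had listed *Fshr*, *Inhba* and *Cyp19a1* from these libraries, so their direction is not independent evidence. Sums of the 6 theca and steroidogenic cell markers in the 6 libraries were 1967, 2009 and 2471 in WT 1118, 1119 and 1121, against 2493, 2688 and 2825 in GOAT KO 1140, 1141 and 1146, without overlap and in the same order of libraries as *Aldh1a1*. The part of either marker list in the difference was not tested. The exact two-sided permutation test of the *Aldh1a1* CPM gave p = 0.229 with 8 libraries and 0.1 with 6, the smallest that 3 against 3 allow.

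*Aldh1a2*, the main source of retinoic acid in the embryo (chromosome 9, 71215789 to 71296243), had CPM of 34.4, 34.4, 38.0 and 35.4 in the WT libraries and 31.3, 35.2, 40.3 and 47.5 in the GOAT KO libraries, in the same order of animals. GOAT KO held both the lowest and the highest library, and its SD of 6.995 around a mean of 38.6 was wider than that of 1.68 around 35.6 in WT (n = 4). The log2 fold change was 0.12 (SE 0.11, unadjusted p = 0.324 by edgeR) with all 8 libraries, and 0.24 (SE 0.10, unadjusted p = 0.0388, adjusted p = 0.515) with the 6. Leaving out each library in turn gave 0.0026 to 0.21, with the lowest value without GOAT KO 1146. *Aldh1a3*, which makes retinoic acid in the developing eye and nasal region (chromosome 7, 66390890 to 66427517), had 15.7, 10.4, 7.30 and 12.1 CPM in the WT libraries and 11.5, 12.5, 10.1 and 8.95 in the GOAT KO libraries. WT held both the highest and the lowest library. Its log2 fold change was −0.08 (SE 0.20, unadjusted p = 0.692 by edgeR), −0.28 (SE 0.17, unadjusted p = 0.129) with the 6 libraries, and 0.11 without WT 1118.

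*Aldh1a1* was the main ALDH1A gene in every library. It made up 87.6 to 91.0% of the summed CPM per kb of *Aldh1a1*, *Aldh1a2* and *Aldh1a3* in the 8 libraries, *Aldh1a2* 8.22 to 10.1% and *Aldh1a3* 0.779 to 2.26%. The lowest share of *Aldh1a1* was in WT 1118 and the highest in WT 1120, so that the GOAT KO libraries, at 90.04 to 90.51%, lay inside the WT range. Some reads could belong to either *Aldh1a1* or its paralog *Aldh1a7*, since 3.06% of the 50-base windows of *Aldh1a1* exons and 7.49% of those of *Aldh1a7* were shared. *Aldh1a1* had 116037 counts over the 8 libraries and *Aldh1a7* 1825, so shared reads could alter the level of *Aldh1a7* far more than that of *Aldh1a1*. *Aldh1a7* had 12.2, 11, 12.5 and 11.2 CPM in the WT libraries against 17.2, 12.5, 14.8 and 12.5 in the GOAT KO libraries. The groups did not overlap, as for 1.64% of all genes tested in this direction. WT 1120 at 12.46 CPM (227 counts) was only just under GOAT KO 1146 at 12.49 CPM (215 counts), a margin within counting error. The exact two-sided permutation p was 0.0286, the smallest that 4 against 4 allow, and rests on that margin. By edgeR the adjusted p was 0.983 and the log2 fold change 0.28 (SE 0.12), which was 0.21 with the 6 libraries. The part of shared reads in this difference was not tested.

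*Adh1*, an alcohol dehydrogenase that oxidises retinol (chromosome 3, 138260991 to 138290698), had 11.96, 9.001, 25.25 and 14.83 CPM in WT 1118, 1119, 1120 and 1121, against 25.61, 13.75, 19.86 and 19.7 in GOAT KO 1139, 1140, 1141 and 1146. WT 1120 and GOAT KO 1139 were the highest libraries and WT 1119 the lowest. With all 8 libraries the WT mean was 15.3 ± 7.07 and the GOAT KO mean 19.7 ± 4.84 (SD, n = 4). This gave a log2 fold change of 0.37 (SE 0.28, unadjusted p = 0.216 by edgeR). With the 6 libraries the means were 11.9 ± 2.91 and 17.8 ± 3.48 (SD, n = 3), the groups still overlapped, and *Adh1* passed the call at a log2 fold change of 0.58 (SE 0.19, unadjusted p = 0.0106, adjusted p = 0.435 by edgeR). It also passed without WT 1120 alone, at 0.72 (unadjusted p = 0.0059 by edgeR), but was 0.18 without WT 1119, 0.22 without GOAT KO 1139 and 0.27 without WT 1118, under the value with all 8. Exact two-sided permutation gave p = 0.371 with 8 libraries and 0.2 with 6. The 6 theca and steroidogenic cell markers had summed CPM of 1967, 2009, 3118 and 2471 in the WT libraries and 3165, 2493, 2688 and 2825 in the GOAT KO libraries, also lowest in WT 1118 and 1119 and highest in WT 1120 and GOAT KO 1139, and their part in the difference of *Adh1* was not tested. Exons of *Adh1* overlap the antisense gene *Gm16559* over 6.09% of their length, and use of the strand in counting is not given in the sources used here.

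**Figure D3:**
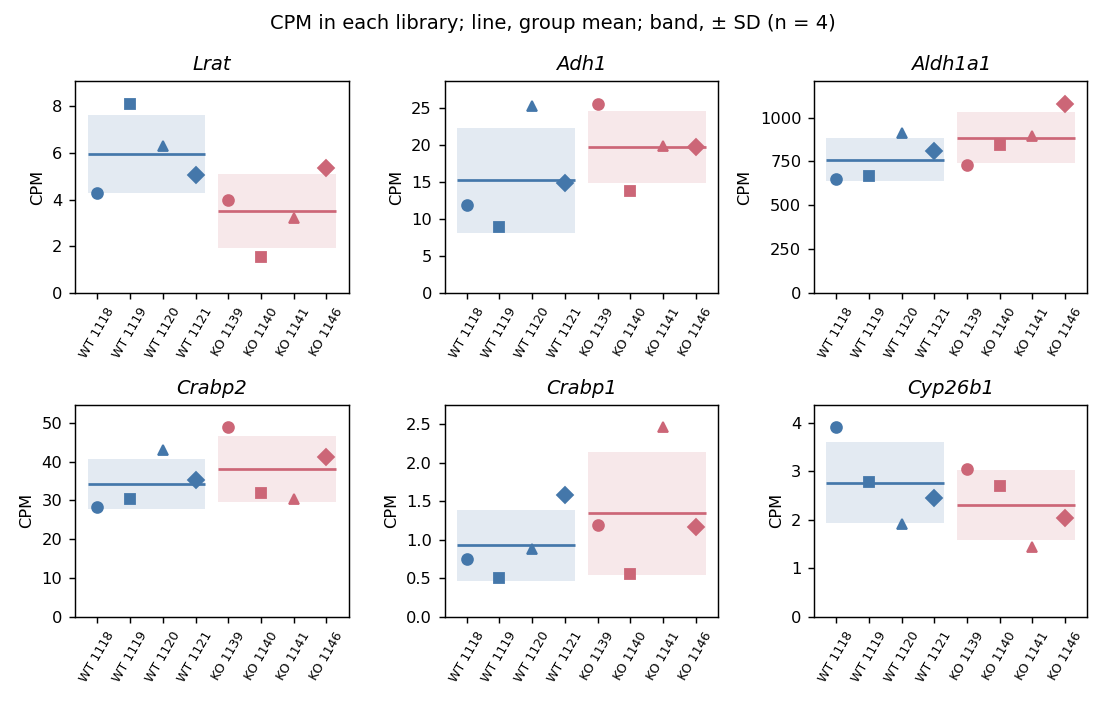
CPM of *Lrat*, *Adh1*, *Aldh1a1*, *Crabp2*, *Crabp1* and *Cyp26b1* in each library, each panel with its own axis from 0, WT in blue and GOAT KO (KO on the axis) in red, with a line at the group mean and a band of ± SD (n = 4). *Adh1* is highest in WT 1120 and GOAT KO 1139, *Lrat* is lowest in GOAT KO 1140 at 1.53 CPM, and the groups overlap in every panel.

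*Lrat*, the enzyme that esterifies retinol for storage (chromosome 3, 82892579 to 82903973), had CPM of 4.27, 8.11, 6.31 and 5.07 in the WT libraries and 4.01, 1.53, 3.23 and 5.35 in the GOAT KO libraries, in the same order of animals. The groups overlapped, since GOAT KO 1146 was above WT 1118 and 1121, and GOAT KO 1140 was the lowest. The WT mean was 5.94 ± 1.67 and the GOAT KO mean 3.53 ± 1.60 (SD, n = 4), from 69 to 146 and 25 to 92 counts per library. This was a log2 fold change of −0.75 (SE 0.31, unadjusted p = 0.0356, adjusted p = 0.983 by edgeR), and the exact two-sided permutation p was 0.114. With the 6 libraries it was −0.79 (SE 0.36, unadjusted p = 0.0523, adjusted p = 0.536 by edgeR) and did not pass the call. The call was also lost without WT 1119 (−0.57, unadjusted p = 0.117), WT 1120 (−0.73, unadjusted p = 0.0597), GOAT KO 1140 (−0.51, unadjusted p = 0.066) or GOAT KO 1141 (−0.71, unadjusted p = 0.0792) by edgeR, while the estimate stayed below 0 without each library in turn.

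The binding proteins differed from each other in level more than between groups. *Crabp2*, which delivers retinoic acid to its nuclear receptors (chromosome 3, 87948666 to 87953376), had 28.4, 30.3, 43.0 and 35.2 CPM in the WT libraries, against 48.8, 31.9, 30.4 and 41.3 in the GOAT KO libraries. As for *Adh1*, WT 1120 and GOAT KO 1139 were the highest libraries of their groups, and the groups overlapped. The means were 34.2 ± 6.50 and 38.1 ± 8.61 CPM (SD, n = 4), with a log2 fold change of 0.15 (SE 0.17, unadjusted p = 0.376 by edgeR) and of 0.14 (SE 0.12, unadjusted p = 0.278) with the 6 libraries. Single libraries moved it, to 0.01 without GOAT KO 1139 and 0.28 without WT 1120. *Crabp1* (chromosome 9, 54764748 to 54773110), the cytosolic partner that holds retinoic acid and passes it to breakdown, had 12, 9, 16 and 29 counts in the WT libraries, against 20, 9, 48 and 20 in the GOAT KO libraries, with the highest library GOAT KO 1141. Its log2 fold change of 0.55 (SE 0.45, unadjusted p = 0.243 by edgeR) ranged from 0.06 to 0.94 when each library was left out in turn. *Crabp2* was 7.51 to 36.8 times *Crabp1* in CPM per kb across the libraries.

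Of the breakdown enzymes, *Cyp26b1*, the CYP26 enzyme of fetal gonads (chromosome 6, 84571414 to 84593908), had 3.90, 2.78, 1.92 and 2.45 CPM in the WT libraries, against 3.05, 2.69, 1.43 and 2.03 in the GOAT KO libraries, from 28 to 63 counts per library. The groups overlapped, with the highest library WT 1118 and the lowest GOAT KO 1141. Its estimate was a log2 fold change of −0.27 (SE 0.27, unadjusted p = 0.350 by edgeR) with all 8 libraries and −0.58 (SE 0.27, unadjusted p = 0.0545, adjusted p = 0.539) with the 6. It was −0.06 without WT 1118 and −0.09 without GOAT KO 1141 and up to −0.43, without GOAT KO 1139, when single libraries were left out. *Cyp26a1*, whose promoter is printed above (chromosome 19, 37697798 to 37701536), had 1, 4, 1 and 4 counts in the WT libraries, against 2, 1, 5 and 2 in the GOAT KO libraries. It was under the filter on low counts and was not tested. The 10 counts of each group have an exact Poisson 95% interval of 4.8 to 18.4, which covers counting error only, so a difference of moderate size was not detectable at this depth. The summed level of *Aldh1a1*, *Aldh1a2* and *Aldh1a3* was 198 to 551 times the summed level of *Cyp26a1* and *Cyp26b1* in CPM per kb. This ratio was 198, 242, 525 and 321 in the WT libraries and 260, 355, 507 and 551 in the GOAT KO libraries, with overlap.

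Reads across splice junctions, deposited apart from the gene counts, gave the spliced RNA of each gene. *Aldh1a1* had 29064 reads on its annotated junctions over the 8 libraries, 25.1 per 100 gene reads, *Aldh1a2* 1119 (21.4 per 100), *Adh1* 446 (18.1 per 100) and *Crabp2* 839 (16.5 per 100). Of the *Aldh1a1* reads, 29049 lay on the 12 introns from the first intron of transcript Aldh1a1-201 on, and 15 on 9 introns upstream of it, so that nearly all junction reads lay downstream. *Aldh1a3* had 113 junction reads (7.32 per 100) and *Crabp1* 13. The low genes had few such reads, with 5 for *Lrat*, which has 1 intron, 3 for *Cyp26b1* and 0 for *Cyp26a1*, so that the difference of *Lrat* could not be read from junctions at this depth. *Adh1* had 13, 22, 84 and 51 junction reads in the WT libraries and 96, 31, 72 and 77 in the GOAT KO libraries, with WT 1120 and GOAT KO 1139 again highest.

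**Figure D4:**
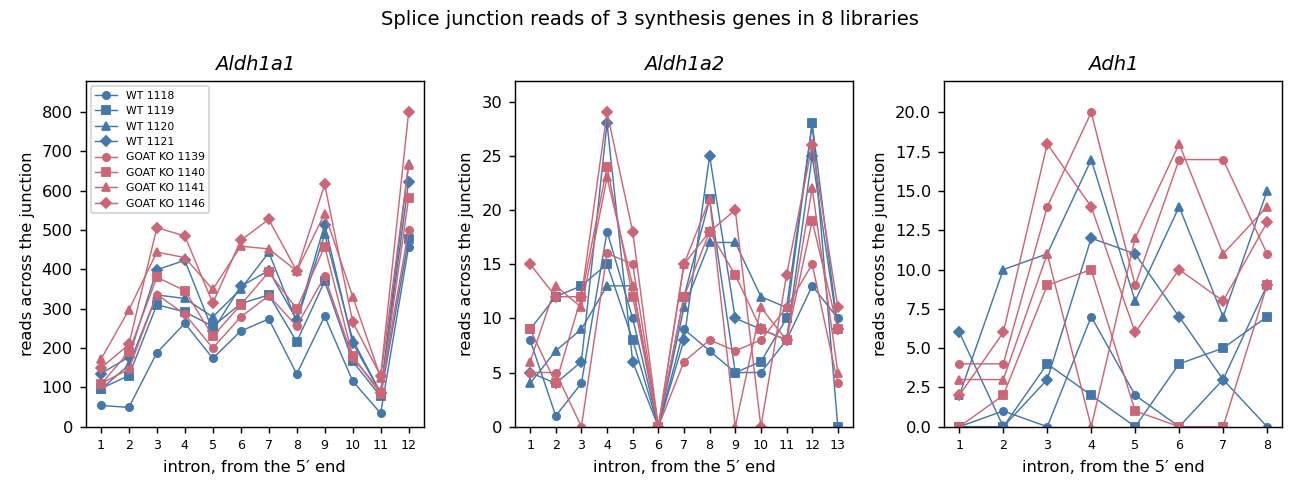
Reads across the splice junctions of *Aldh1a1* (12 introns from the first intron of Aldh1a1-201 on), *Aldh1a2* (13 introns) and *Adh1* (8 introns), each of 1 annotated transcript, numbered from the 5′ end, 1 line per library with WT in blue and GOAT KO in red. *Aldh1a1* has the most reads, WT 1118 lies lowest on most of its junctions, and lines of the groups cross in all 3 panels.

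The wider pathway was read from 44 other retinoid genes, of which 27 passed the filter on low counts. None of the 27 passed the call by edgeR, DESeq2 or limma-voom with all 8 libraries, or by edgeR with the 6, and 1 had an unadjusted p under 0.05 by each tool with all 8, where 4.62% of all tested genes did by edgeR. Estimates were above 0 for 13 and below 0 for 14, with a median log2 fold change of −0.0044. The gene with that p was *Rarg*, the retinoic acid receptor gamma, with 89.3, 68.5, 62.4 and 71.0 CPM in the WT libraries, against 65.9, 48.6, 50.6 and 65.4 in the GOAT KO libraries. WT 1118 was the highest library and GOAT KO 1140 and 1141 the lowest, and the groups overlapped. Its log2 fold change was −0.34 (SE 0.13, unadjusted p = 0.0257, adjusted p = 0.983 by edgeR), and −0.47 (SE 0.13, unadjusted p = 0.00325, adjusted p = 0.348) with the 6 libraries, where the groups did not overlap. In the 6 libraries the groups did not overlap for 4 of the 27, *Rarg*, *Rara* and *Rxra* lower and *Dgat1* higher, as for 15.8% of all genes. Of 9 ovarian surface epithelium markers, 9 also had estimates below 0 with the 6 libraries and 3 an unadjusted p under 0.05 by edgeR, against 5 below 0 and 1 with such a p with all 8. Their summed CPM were 188, 196.1 and 176.8 in WT 1118, 1119 and 1121, against 168.4, 165.7 and 168.2 in GOAT KO 1140, 1141 and 1146, without overlap, while WT 1120 at 161.1 and GOAT KO 1139 at 202.3 lay the other way, and their part in the receptor values was not tested. With the 6, *Rara* (−0.29, unadjusted p = 0.0398), the retinol importer *Stra6* (−0.34, unadjusted p = 0.0296) and the acyltransferase *Dgat1* (0.20, unadjusted p = 0.0489) also had an unadjusted p under 0.05 by edgeR, 4 of 27 in all where 9.46% of all genes did. *Rara* was chosen after its values were seen.

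By role, 2 of the 3 tested genes for retinol transport and uptake had estimates above 0 and 1 below, among them *Stra6l*, a relative of the importer *Stra6*, at 0.24 (SE 0.19), and *Rbp4*, the carrier of retinol in plasma, at 0.49 (SE 0.35) with all 8 libraries and −0.18 with the 6. *Rbp4* was 20.2 CPM in GOAT KO 1139, where the adipose tissue markers were highest, against 5.16 to 9.49 CPM in the rest. The part of those markers in this value was not tested. Of 10 tested dehydrogenases and reductases, 4 were above 0 and 6 below. *Dhrs3*, which returns retinaldehyde to retinol and is induced by retinoic acid, had 54.6, 57.2, 95.2 and 65.5 CPM in the WT libraries, against 57.4, 37.0, 38.1 and 68.5 in the GOAT KO libraries, a log2 fold change of −0.44 (SE 0.22, unadjusted p = 0.072 by edgeR), which was −0.31 (unadjusted p = 0.146) with the 6 libraries, and it passed the call at −0.63 without GOAT KO 1146. *Rdh11* was at −0.05 (SE 0.06) and *Adh5* at 0.05 (SE 0.07). Of 5 genes of retinyl ester handling and carotenoid cleavage, 4 were above 0, *Dgat1* at 0.24 (SE 0.15), *Awat2* at 0.17 (SE 0.19) and *Lipe*, the hormone-sensitive lipase, at 0.26 (SE 0.25), which was −0.08 with the 6 libraries. Of the 4 receptors tested, 3 were below 0 and 1 above, with *Rxra* at −0.08 (SE 0.05) and *Rxrb* at 0.02 (SE 0.05).

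Genes known to respond to retinoic acid were tested for 7 of 12 listed, with 2 above 0, 5 below and a median log2 fold change of −0.20, and 0 passed the call or had an unadjusted p under 0.05 by edgeR. *Tgm2*, a transglutaminase, was at 0.08 (SE 0.10), *Rarres2*, which encodes chemerin, at 0.03 (SE 0.09), and *Stra6* at −0.17 (SE 0.18). *Stra8*, the meiotic gatekeeper induced by retinoic acid in fetal germ cells, had 0 counts in all 8 libraries, for an upper limit of 0.0521 CPM over the WT and 0.0528 CPM over the GOAT KO libraries (exact Poisson, 95%). *Cyp26c1* had 1 count in WT and 0 in GOAT KO, and *Adh4* and *Adh7*, other retinol dehydrogenases, had 3 and 12 in WT and 3 and 9 in GOAT KO.

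**Figure D5:**
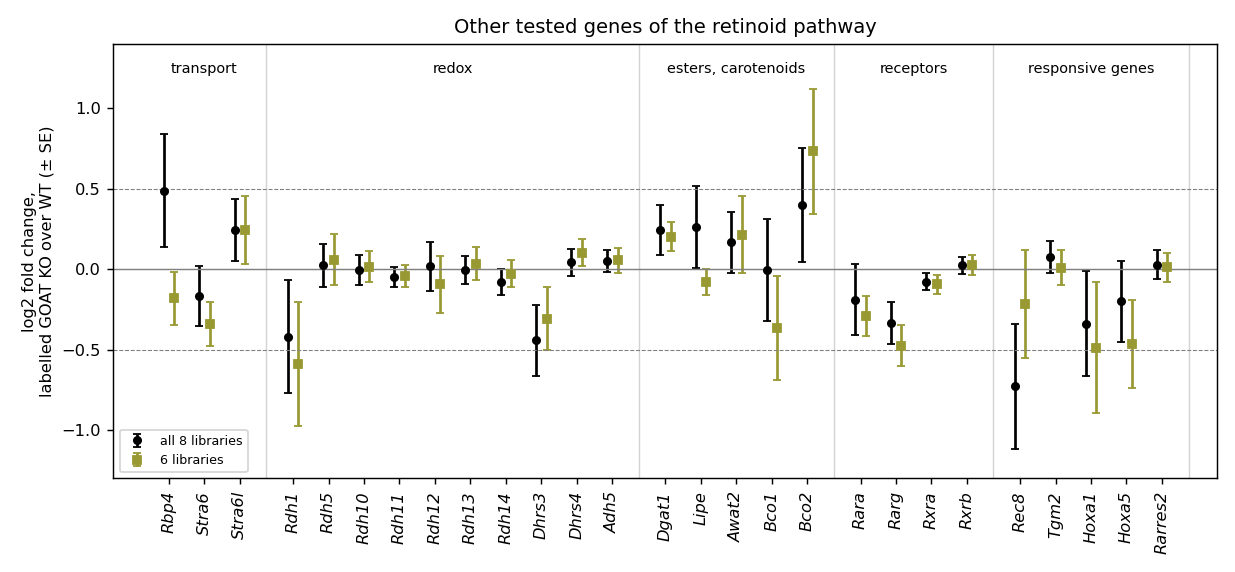
Log2 fold change of GOAT KO over WT with bars of ± SE for the 27 other retinoid genes tested, with all 8 libraries in black and the 6 in olive, grouped by role with each gene drawn once and dashed lines at ±0.5. With all 8, estimates lie on both sides of 0, 13 above and 14 below, and *Rarg* lies at −0.34, while *Rbp4*, *Lipe*, *Rdh10*, *Rdh12* and *Rdh13* change side with the 6.

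Across the 8 libraries some of the genes moved together, given here as a description of log2 CPM over libraries that share their genotype groups and cell composition. Pearson's r was 0.85 between *Aldh1a1* and *Aldh1a2* (Spearman's rho 0.857), and 0.759 without GOAT KO 1146 and WT 1118. These are the 2 libraries farthest from the median of the first gene of the pair, the only gene used for this choice. Between *Adh1* and *Crabp2*, both highest in WT 1120 and GOAT KO 1139, r was 0.80 (rho 0.833). It was 0.753 without WT 1119 and GOAT KO 1139, which keeps WT 1120. Between *Aldh1a1* and *Cyp26b1* r was −0.761 (rho −0.857), and −0.748 without GOAT KO 1146 and WT 1118. By exact permutation over the 28 pairs the smallest p for r was 0.00642, which was 0.18 after Benjamini-Hochberg adjustment, so none of the pairs passed. The genes with the most similar pattern over the 8 libraries, by Pearson's r of log2 CPM, were *Gm10131* (0.98) and *Gm26555* (0.962) for *Aldh1a1*, *Cltc* (0.982) and *Hspa12a* (0.977) for *Crabp2*, and *Gm5424* (0.981) and *Trak2* (0.981) for *Adh1*. For *Lrat* they were *Chordc1* (0.947) and *Klc3* (0.938), for *Cyp26b1* *Synj2bp* (0.954) and *Gm7211* (0.953), for *Aldh1a2* *Cela3b* (0.952) and *Mettl18* (0.950), for *Aldh1a3* *Gm2058* (0.966) and *Thra* (0.962), and for *Crabp1* *RP24-241H23.2* (0.963) and *RP24-388K6.6* (0.948). Each is the highest r picked from all tested genes over only 8 libraries, where high values arise by chance, and no chance level was computed. Some had few reads, such as *Cela3b* at 0.741 CPM and *RP24-388K6.6* at 0.543 CPM.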

How the data were processed

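Total RNA of 1 ovary sample per mouse was sequenced by the authors as 50-base single reads, which they aligned to the mouse genome (mm10, GRCm38) with TopHat2 2.0.14, per the labels and their methods. The deposited counts are whole reads per gene symbol, not normalized, and the deposited junction counts are reads across each splice junction. The counting tool and the use of strand are not given in the sources used here. The transcripts assembled with StringTie 1.0.4 and the feature summaries were not used.

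The gene counts were fitted in R 4.3.3 with edgeR 4.0.16. Libraries were scaled by TMM, genes were kept by filterByExpr (minimum count 10, minimum total 15), and GOAT KO was compared with WT by the quasi-likelihood test, and p-values were adjusted (Benjamini-Hochberg) across the tested genes. Genes were called, as in the study, where the unadjusted p was under 0.05 and the log2 fold change was beyond 0.5 in either direction. DESeq2 1.42.0 and limma-voom (limma 3.58.1) were alternatives. Single values were compared by exact two-sided permutation, with a smallest p of 0.0286 for 4 against 4. CPM per kb is TMM-scaled CPM over the union exon length of GENCODE genes on GRCm38, in a later release than the authors used, which also gave positions. No pair of libraries of a group differed by less than sampling noise (chi-square per gene 4.22 to 27.1), so each was 1 replicate. Reads carry no molecular identifiers, so intervals cover counting error only.

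The 9 genes, the retinoid and marker lists and the naming rule were chosen with earlier results of these data known. *Adh1*, *Lrat*, *Cyp26b1*, *Rarg* and *Stra6* were among the genes the study listed from these libraries, as were the markers *Fshr*, *Inhba*, *Cyp19a1* and *Cyp11a1*. Their direction is therefore not independent evidence. Genes named are the 9, listed retinoid genes that passed the call, the 3 of each list with the highest mean CPM, the 2 genes most like each tested member, genes that overlap a member, sequence-sharing paralogs and *Mboat4*. *Rarb*, *Stra8*, *Adh4*, *Adh7*, *Rara*, *Rbp7*, *Rec8*, *Rdh10*, *Rdh12* and *Rdh13* fall outside this rule and were chosen after their values were seen. The same holds for the markers *Hsd3b1*, *Cyp11a1*, *Inha*, *Fshr*, *Inhba* and *Cyp19a1*. A listed retinoid gene is not reported here and was left out of the list counts.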

Additional observations from a re-analysis of the deposited data

Results flagged for a closer look

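Dixon's test of the highest or lowest library of a group was applied to 52 groups of 4 libraries over 26 genes, of which chance alone marks about 5%, and it marked 6. *Lipe* was 70.4 CPM and *Rara* 49.8 CPM in GOAT KO 1139, both far above the other 3 GOAT KO libraries, and *Rxra* was 93.5 CPM in the same library. *Rara* was also 49.7 CPM in WT 1120, where the summed adipose tissue markers were 19.8 CPM. The *Rxra* value of GOAT KO 1139 lay inside the WT range of 90.1 to 100.1 CPM. The summed adipose tissue markers were 613.8 CPM in GOAT KO 1139 against 15.1 to 36.3 in the other 7 libraries, and their part in these values was not tested. *Tgm2* was 128.8 CPM in WT 1120 and *Rxrb* 90.3 CPM in GOAT KO 1140, each below the rest of its group. *Mboat4* was 0.164 CPM in WT 1121, from 3 counts where the other WT libraries had 1 each. None of the 9 genes for retinoic acid synthesis, storage, binding and breakdown was marked by this test.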

How the results depend on the processing

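With all 8 libraries 278 genes passed the call, against 691 without the filter on low counts and 231 to 437 when each library was left out in turn, with 437 without WT 1120. Of the 9 genes, 1 passed, and 0 to 1 when each library was left out, with 0 without WT 1119, GOAT KO 1140 or GOAT KO 1141; *Lrat* was the one called with RLE size factors, DESeq2, limma-voom and without the filter, and *Adh1* with the 6 libraries. Of the other retinoid genes 0 passed, against 2 without the filter (*Rbp7* and *Rec8*) and 0 to 2 when each library was left out, counts that include *Rbp7*, which then reached the filter's minimum through the GOAT KO libraries where it was high. Leaving out each library gave *Aldh1a3* a log2 fold change between −0.25 and 0.11 and a difference in CPM between −2.02 and 0.797, and *Cyp26a1* a difference in CPM between −0.0403 and 0.0266. The cause of these changes was not tested. No paired analysis was possible because the animal numbers of the groups have no number in common. Depth limits *Cyp26a1*, *Crabp1*, *Cyp26b1* and *Lrat* most, with at most 146 counts per library.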

Other observations

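*Rbp7*, a retinol binding protein of adipose tissue and endothelium that did not pass the filter on low counts, had 8, 9, 8 and 9 counts in the WT libraries and 41, 12, 20 and 9 in the GOAT KO libraries. GOAT KO 1139, where the adipose tissue markers were highest, held the most, and GOAT KO 1146 was level with WT. *Rec8*, a meiotic cohesin that responds to retinoic acid in germ cells, had 4.09, 1.5, 6.20 and 2.02 CPM in the WT libraries, against 1.86, 1.83, 2.51 and 2.09 in the GOAT KO libraries. The WT libraries held both its highest and its lowest values, and the log2 fold change of −0.73 (SE 0.39, unadjusted p = 0.0878 by edgeR) did not pass the call with all 8 libraries, but did at −0.98 without WT 1119 and −0.92 without WT 1121, and was −0.22 (unadjusted p = 0.536) with the 6 libraries. All 4 leukocyte markers had estimates below 0, with a median log2 fold change of −0.28, and 0 passed the call by edgeR, while 1 had an unadjusted p under 0.05, where 4.62% of all tested genes did. All 8 oocyte markers had estimates above 0 with all 8 libraries, with a median of 0.07 and 1 with such a p, and 7 were above 0 with the 6.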
